A study of Mus musculus with 8 samples.

Results

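The type I interferon-stimulated genes form the antiviral programme that cells switch on when interferon binds its receptor, and 40 of them were followed here in hepatic macrophages of mice with acetaminophen liver injury. Members were chosen by symbol, and a member counted as measured when the array held a row with its symbol and no other. Of the 40, 36 were measured, among 22180 genes tested. Oas1a, Dtx3l and Ifi27l2a lay only on rows shared with another gene, and Ifi44 was not analysed here. All 8 arrays came from male FVB/N mice aged 8 weeks that received 350 mg/kg acetaminophen, a drug whose overdose kills hepatocytes. The control mice (rTF) had been given 25 µg recombinant transferrin, the plasma iron carrier, into a tail vein 12 h earlier, and the treated mice (rCPS1) 50 µg recombinant CPS1, an enzyme of the hepatocyte urea cycle. The injected protein and its amount therefore differed together between the groups, and every array is of injured liver. Each group held 4 arrays, replicates 1 to 4. All titles name the same mouse number, so whether replicates were separate animals is not settled, and each p-value reflects the scatter among these arrays alone, part of which could be technical. How the macrophages were isolated, and how long after acetaminophen, is not given in the sources used here.

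Type I interferons (interferon alpha and beta) bind a receptor made of IFNAR1 and IFNAR2, whose kinases JAK1 and TYK2 activate STAT2. STAT2 and IRF9 are subunits of the factor ISGF3, which binds the interferon-stimulated response element near the start of target genes. The targets block viral RNA and protein synthesis, sense foreign nucleic acid, and include both IRF7, which amplifies interferon production, and USP18, which damps the receptor. In liver, Kupffer cells and recruited macrophages carry this programme in infection and in sterile injury.

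The core of the response element was searched as GAAANNGAAA, or TTTCNNTTTC on the other strand, in the 250 bases before RefSeq start sites (GRCm38.p6), with overlapping matches counted separately. Of the 36 measured members 27 had such a sequence and 11 of these (40.7%) held a match, against 3.46% of 27025 genes. A match is a description of the letters, not of binding. The stretches below show the match in capitals, for the member whose groups did not overlap (Ifit1bl2) together with its neighbour Ifit1, for the ISGF3 subunit gene Stat2, and for Isg15 and Rsad2, which were chosen after their values were seen because they name the programme. Ifit1 and Ifit1bl2 are divergent neighbours on chromosome 19. The same pair of matches lies 104 and 85 bases before the Ifit1 start and, read from the other strand, 70 and 51 bases before a start of Ifit1bl2. Another RefSeq start of Ifit1bl2 held no match. The first stretch overlaps the annotated genes Ifit1bl1 and Ifit1bl2, and the Stat2 stretch overlaps Apof.
Ifit1 and Ifit1bl2, chr19:34640785-34640813, + strand: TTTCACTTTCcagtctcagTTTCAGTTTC
Stat2, chr10:128270266-128270295, + strand: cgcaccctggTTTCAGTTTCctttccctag
Isg15, chr4:156200819-156200938, - strand: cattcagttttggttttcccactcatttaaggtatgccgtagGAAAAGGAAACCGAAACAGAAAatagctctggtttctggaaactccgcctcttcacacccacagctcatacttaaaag
Rsad2, chr12:26456453-26456602, - strand: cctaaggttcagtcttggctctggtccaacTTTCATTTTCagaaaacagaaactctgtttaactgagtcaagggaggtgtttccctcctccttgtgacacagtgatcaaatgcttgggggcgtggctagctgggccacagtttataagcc
The Isg15 stretch holds 3 overlapping matches that start 78, 72 and 66 bases before the start site. The Rsad2 match starts 120 bases and the Stat2 match 222 bases before theirs.

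Values are log2 levels after RMA, a normalization that gives the arrays a common scale, so that a difference of 1 is a doubling. Levels of different genes are not compared with one another, only with the median level of all genes. The 12 macrophage marker genes all lay above the median level of all genes (4.19). So did 21 of 22 T and NK cell markers and all 14 monocyte markers, so this level cannot single out macrophages. The 14 sinusoidal endothelial markers were above it too, as were 14 of 15 hepatocyte markers, so RNA of other liver cells may have been present. In such bulk RNA, fewer cells of a type and less RNA per cell cannot be told apart. Among the members, 35 of 36 lay above that level, the exception being Ifit1bl2. The members varied more between arrays than other genes, with a median SD over the 8 arrays of 0.33, against 0.20 for all genes above the median level. A low rTF array was already known for these members beforehand, so this is a description and not a separate result.

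Interferon-stimulated genes were, as measured, slightly higher after rCPS1, but the difference passed the test for none of the 36 measured. It shrank when 1 control array, the lowest for most members, was left out. The log2 difference, rCPS1 minus rTF, was positive for 31 of 36 members, whereas 45.6% of all genes tested had a positive difference. The median over the members was 0.24 (1.18-fold), against -0.018 over all genes, and single members ran from -0.38 (Isg20) to 0.61 (Ifit1bl2). In the limma fit over all genes 0 of 36 members had an adjusted p under 0.05, as did 0% of all genes, and the smallest adjusted p of a member was 0.862. An unadjusted p under 0.05 was reached by 1 member, higher with rCPS1, where 1.88% of all genes did so in that direction, and by 0 members in the lower direction, where 2.79% did. The groups did not overlap for that same gene alone, Ifit1bl2, and 0.947% of all genes had every rCPS1 array above every rTF array. The median standard error of a member's difference was 0.19, close to the median difference itself.

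The array of rTF replicate 2 was low across most of the programme. For 29 of 36 members it was the lowest of the 8 arrays, as it was for 14.3% of all genes. Measured against each gene's own mean over the 8 arrays, the median member stood at -0.52 in rTF replicate 2, and at -0.07, -0.04 and 0.14 in rTF replicates 1, 3 and 4. In rCPS1 replicates 1 to 4 it stood at 0.23, -0.16, 0.11 and 0.41. Over all genes the same medians lay between -0.030 and 0.018 on every array. The upper end belonged to rCPS1 replicate 4, which was the highest of the 8 arrays for 23 of 36 members, against 13.9% of all genes. Within the rCPS1 group replicate 2 was the lowest array for 26 of 36 members, where 23.9% of all genes had it lowest. The mean level over the members was 7.97, 7.53, 7.99 and 8.20 in rTF replicates 1 to 4 and 8.23, 7.84, 8.14 and 8.40 in rCPS1 replicates 1 to 4. The groups overlapped in this mean, at 7.92 ± 0.28 with rTF and 8.15 ± 0.23 with rCPS1 (SD, n = 4 each).

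**Figure D1:**
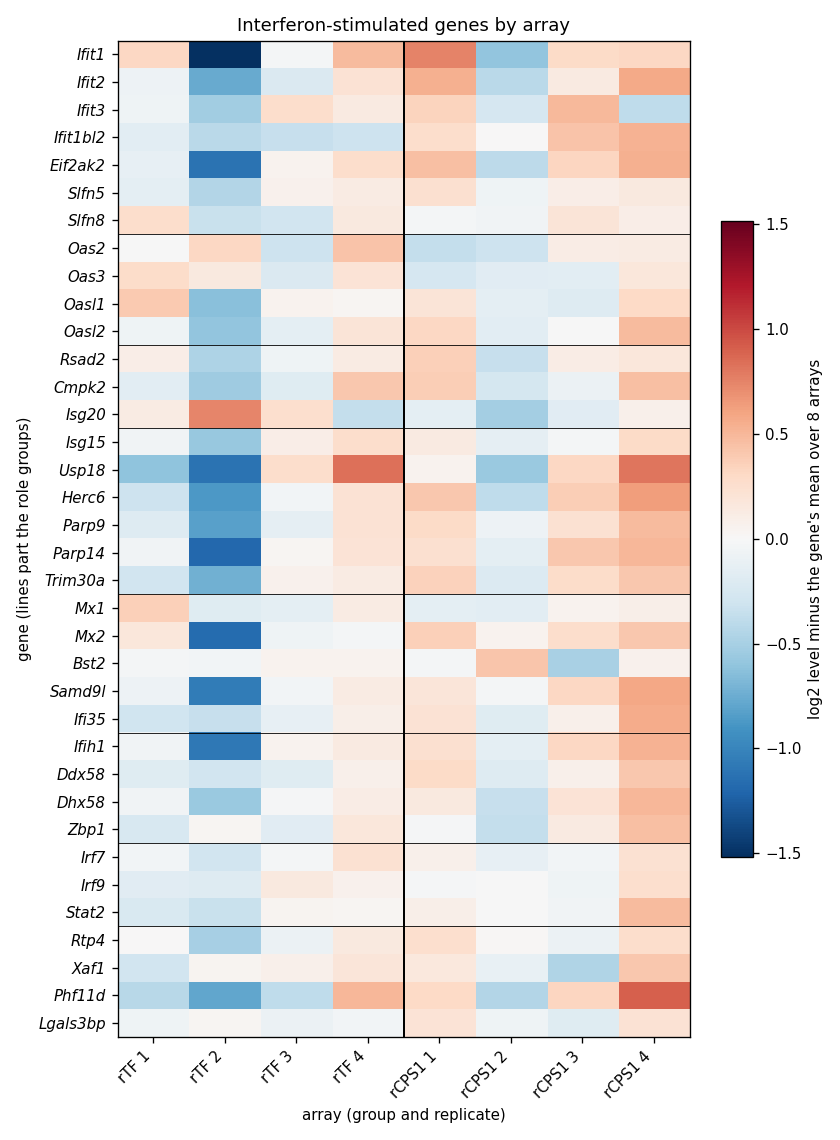
Log2 level of each of the 36 measured members (rows, ordered by role) on each of the 8 arrays (columns) minus that gene's mean over the 8 arrays. Blue is below and red above the mean. The column of rTF replicate 2 is blue for 30 of 36 members, and the column of rCPS1 replicate 4 is red for 35.

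Without rTF replicate 2 the difference was smaller for 30 of 36 members. This follows from that array lying below the mean of the other rTF arrays for those 30, and is not a separate result. The median member difference was then 0.10, against -0.0097 over all genes, and 25 members were higher and 11 lower, where 47.5% of all genes were higher. The 6 members that changed sign were Ifit1, Ifit3, Oasl1, Isg15, Usp18 and Irf7. Without that array the difference of Ifit1 was -0.06 ± 0.29 (SE), in place of 0.38 ± 0.43 with all 8 arrays. Leaving out rCPS1 replicate 4 gave a median difference of 0.15 with 28 members higher, and leaving out rCPS1 replicate 2 gave 0.33 with 31 higher.

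**Figure D2:**
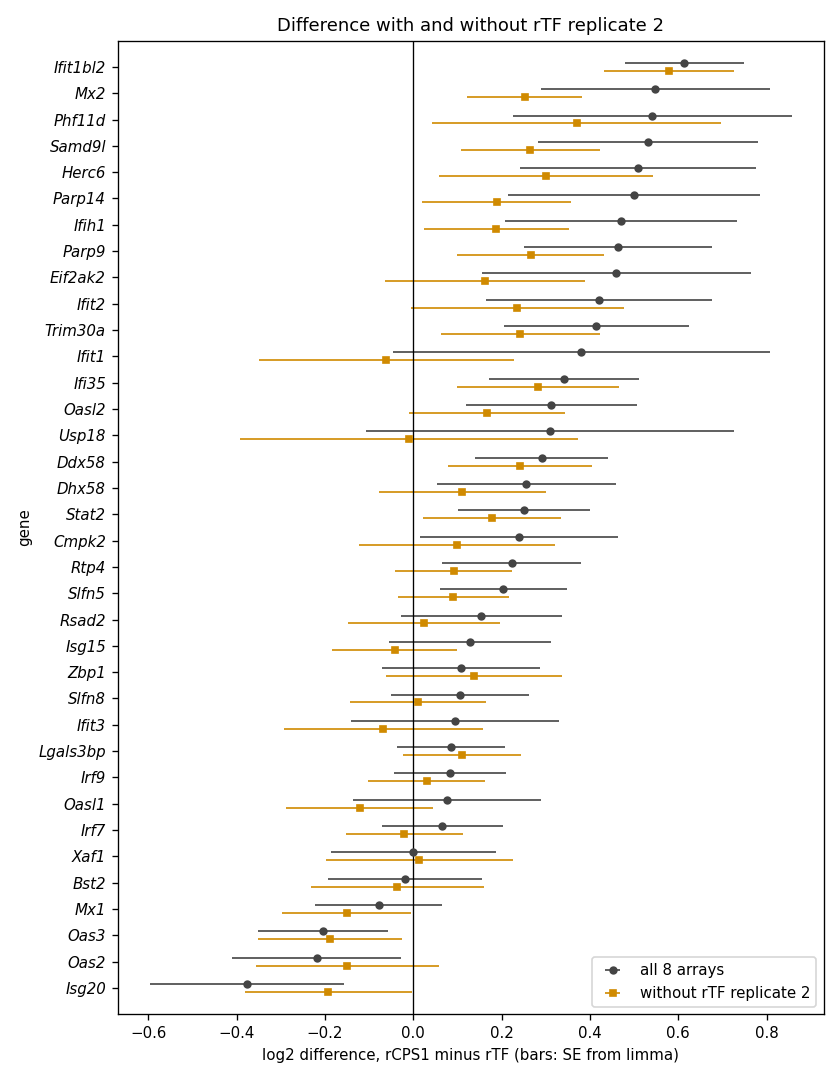
Log2 difference, rCPS1 minus rTF, for each measured member with all 8 arrays (circles) and without rTF replicate 2 (squares), with bars for the standard error from limma. Most squares lie to the left of their circles, with 31 circles and 25 squares above 0, while Ifit1bl2 moves from 0.61 to 0.58.

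The IFIT proteins bind foreign RNA ends and block translation, and their genes lie together on chromosome 19. Ifit1bl2 (probe set 17364133), an IFIT1-like family member, was at 3.72, 3.47, 3.53 and 3.56 in rTF replicates 1 to 4 and at 4.14, 3.88, 4.31 and 4.41 in rCPS1 replicates 1 to 4. All 4 rCPS1 arrays were above all 4 rTF arrays, and rTF replicate 2 did not stand apart. The means were 3.57 ± 0.11 and 4.18 ± 0.23 (SD, n = 4 each), a log2 difference of 0.61 ± 0.14 (SE) with an adjusted p of 0.862. This row was dim, and IFIT paralogs are so alike that the array may not separate them, so the value is uncertain. Ifit1 itself, whose start shares the printed pair of matches, had the widest range of all members and is given for that reason, after its values were seen. It was at 9.98, 8.16, 9.64 and 10.15 with rTF and at 10.43, 9.08, 9.96 and 9.99 with rCPS1. Replicate 2 was the lowest in both groups, the groups overlapped, and the highest array was 4.82-fold above the lowest. Ifit2 differed by 0.42 ± 0.26 and Ifit3 by 0.09 ± 0.23.

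Eif2ak2 (probe set 17347355) encodes PKR, the kinase that stops translation on sensing double-stranded RNA. It was at 8.10, 7.10, 8.28 and 8.49 with rTF and at 8.67, 7.83, 8.54 and 8.76 with rCPS1. Replicate 2 was again lowest on both sides and the groups overlapped, with a difference of 0.46 ± 0.30 (SE) that was 0.16 ± 0.23 without rTF replicate 2. Genes of the Schlafen family, some of whose products restrict translation or cell growth, differed less, Slfn5 by 0.20 ± 0.14 and Slfn8 by 0.10 ± 0.16. All 7 measured IFIT, PKR and Schlafen members had positive differences with 8 arrays and 5 did without rTF replicate 2.

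The oligoadenylate synthetase family, which makes the messenger that activates RNase L, was mixed. Oasl2 (probe set 17441037), an OAS-like protein, was at 9.03, 8.51, 8.95 and 9.29 with rTF and at 9.41, 8.94, 9.10 and 9.59 with rCPS1, a difference of 0.31 ± 0.19 (SE). The groups overlapped, with rTF replicate 2 lowest, and without it the difference was 0.17 ± 0.18. Oas2 (probe set 17452054), an active synthetase, was at 6.02, 6.34, 5.71 and 6.46 with rTF and at 5.66, 5.71, 6.14 and 6.15 with rCPS1. In Oas2 rTF replicate 2 was the second highest rTF array rather than the lowest, and the difference was -0.22 ± 0.19, or -0.15 without it. Oas3 differed by -0.20 ± 0.15 and Oasl1 by 0.08 ± 0.21, so that 2 of the 4 measured members were positive and 2 negative.

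Rsad2 encodes viperin, which makes a chain-terminating nucleotide with material supplied by the neighbouring gene Cmpk2, and Isg20 encodes an RNA exonuclease. Isg20 (probe set 17479317) had the lowest difference of the 5 members that were lower with rCPS1, the others being Oas2, Oas3, Mx1 and Bst2. It was at 7.70, 8.31, 7.82 and 7.21 with rTF and at 7.43, 7.06, 7.40 and 7.65 with rCPS1. Here rTF replicate 2 was the highest of the 8 arrays, the only member for which this was so, and the difference was -0.38 ± 0.22 (SE), or -0.19 ± 0.19 without that array. Rsad2 differed by 0.15 ± 0.18 and Cmpk2 by 0.24 ± 0.22, both with rTF replicate 2 as the lowest array.

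**Figure D3:**
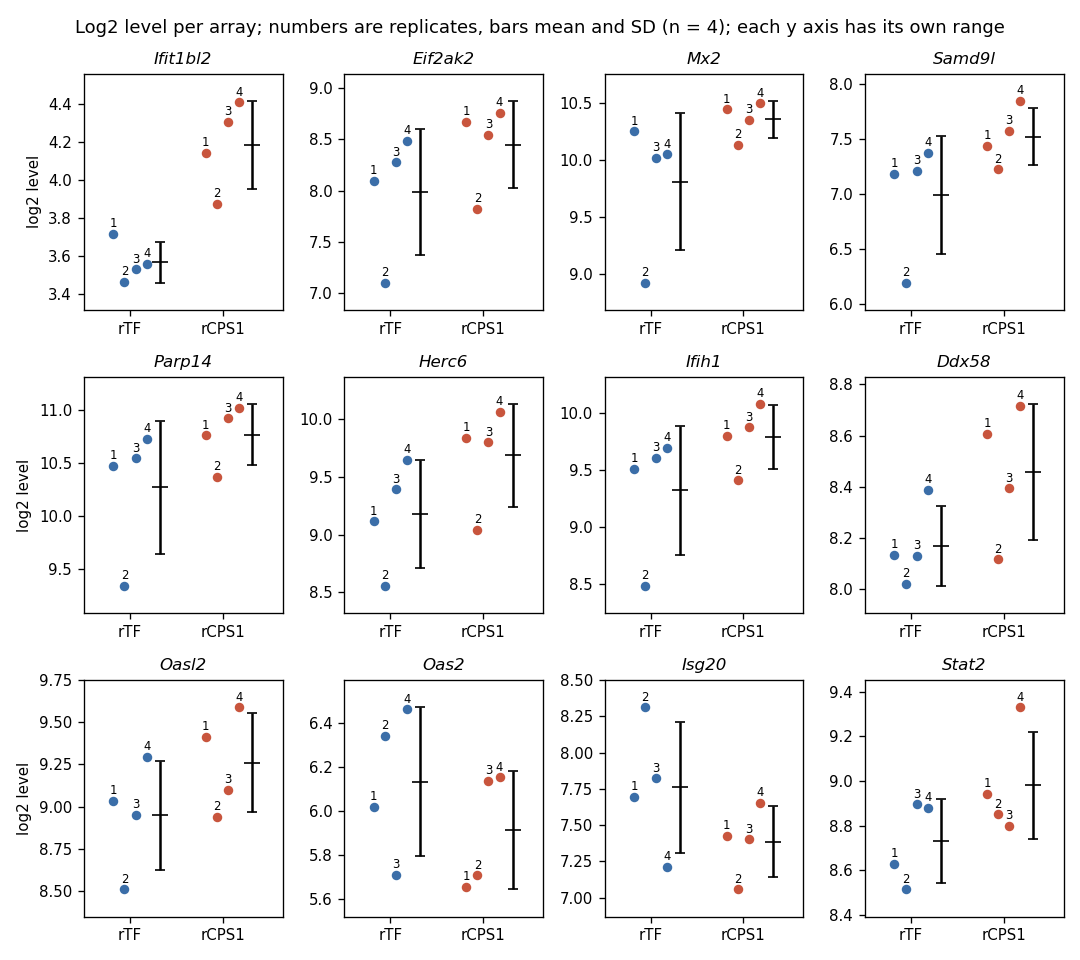
Log2 level on each array for 12 of the 14 members chosen for per-array values, with rTF in blue and rCPS1 in red. Numbers are replicates and bars are the mean and SD (n = 4); each panel has its own axis range. The groups overlap in every panel except Ifit1bl2, and rTF replicate 2 lies lowest of all arrays except in Oas2 and Isg20.

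Genes of the ISG15 and ADP-ribose system had some of the larger differences and all 6 measured members were higher, 4 of them still so without rTF replicate 2. Herc6 (probe set 17458962), the mouse ligase that attaches ISG15 to proteins, was at 9.12, 8.56, 9.39 and 9.65 with rTF and at 9.84, 9.04, 9.80 and 10.06 with rCPS1. Only replicate 2 of the rCPS1 arrays lay within the rTF range, and the difference was 0.51 ± 0.27 (SE), or 0.30 ± 0.24 without rTF replicate 2. Parp14 (probe set 17330099), a mono-ADP-ribosyltransferase, was at 10.47, 9.33, 10.54 and 10.73 with rTF and at 10.76, 10.37, 10.92 and 11.02 with rCPS1. The groups overlapped through rCPS1 replicate 2, and rTF replicate 2 lay 2.37-fold below the mean of the other rTF arrays. The difference was 0.50 ± 0.29, or 0.19 ± 0.17 without that array. Parp9, the partner of the ubiquitin ligase DTX3L and a neighbour of Parp14 on chromosome 16, differed by 0.46 ± 0.21, and Trim30a, an interferon-induced TRIM protein gene, by 0.41 ± 0.21. Isg15 itself, the ubiquitin-like modifier, differed by 0.13 ± 0.18. Usp18, which removes ISG15 and restrains IFNAR signalling, ranged from 7.32 to 9.26 with rTF and from 7.87 to 9.25 with rCPS1, and its difference of 0.31 ± 0.42 became -0.0097 without rTF replicate 2.

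Among antiviral GTPases and membrane or cytosolic effectors, Mx2 (probe set 17327557), a dynamin-like GTPase, was at 10.25, 8.92, 10.02 and 10.05 with rTF and at 10.45, 10.14, 10.36 and 10.50 with rCPS1. The rCPS1 arrays lay close together, 3 of them above every rTF array, and rTF replicate 2 lay 2.27-fold below the mean of the other rTF arrays. The difference was 0.55 ± 0.26 (SE), and 0.25 ± 0.13 without that array. Samd9l (probe set 17464534), a translation-restricting antiviral factor, was at 7.18, 6.19, 7.21 and 7.37 with rTF and at 7.44, 7.22, 7.57 and 7.84 with rCPS1. The groups overlapped through rCPS1 replicate 2, and the difference of 0.53 ± 0.25 was 0.27 ± 0.16 without rTF replicate 2. Mx1, defective in many inbred laboratory strains, differed by -0.08 ± 0.14. Bst2, or tetherin, which holds budding virus at the cell surface, was nearly level on the rTF arrays (9.004 to 9.105), replicate 2 included, and differed by -0.02 ± 0.17. Ifi35 differed by 0.34 ± 0.17, and its second, dimmer row by 0.24.

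The cytosolic sensors were higher in all 4 cases. Ifih1 (probe set 17385797), which encodes the long double-stranded RNA sensor MDA5, was at 9.51, 8.48, 9.61 and 9.69 with rTF and at 9.80, 9.41, 9.88 and 10.08 with rCPS1. All arrays but rTF replicate 2 lay between 9.41 and 10.08, rTF replicate 2 was 2.18-fold below the other rTF arrays, and the difference of 0.47 ± 0.26 (SE) was 0.19 ± 0.16 without it. Ddx58 (probe set 17423987), which encodes the RNA sensor RIG-I, was at 8.13, 8.02, 8.13 and 8.39 with rTF and at 8.61, 8.12, 8.39 and 8.72 with rCPS1. This difference, 0.29 ± 0.15, depended less on rTF replicate 2, being 0.24 ± 0.16 without it. Dhx58 (LGP2, a regulator of those sensors) differed by 0.26 ± 0.20 and Zbp1, a sensor of Z-form nucleic acid that can start cell death, by 0.11 ± 0.18. Zbp1 was another member in which rTF replicate 2 was not low, at 8.14 against 7.86 to 8.27 in the other rTF arrays.

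The 3 measured transcription factor genes of the programme had a median difference of 0.08. Stat2 (probe set 17238367) was at 8.63, 8.51, 8.90 and 8.88 with rTF and at 8.94, 8.85, 8.80 and 9.33 with rCPS1. The groups overlapped and rCPS1 replicate 4 was the highest, with a difference of 0.25 ± 0.15 (SE), or 0.18 ± 0.16 without rTF replicate 2. Irf9 differed by 0.08 ± 0.13 and Irf7 by 0.07 ± 0.14, and rTF replicate 2 minus the mean of the other rTF arrays was -0.29 for Stat2, -0.21 for Irf9 and -0.34 for Irf7, beside a median of -0.54 (1.46-fold) over the 36 members. Whether the factor genes differ from the targets in this respect was not tested. For 7 members rTF replicate 2 was lower by 1 or more, a size reached by 0.924% of all genes.

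Of the remaining induced genes, Phf11d (probe set 17307290), a PHD-finger protein gene, was at 6.46, 6.10, 6.50 and 7.39 with rTF and at 7.18, 6.44, 7.20 and 7.78 with rCPS1. Its arrays spread widely in both groups, which overlapped, and the difference was 0.54 ± 0.32 (SE), or 0.37 ± 0.33 without rTF replicate 2. Rtp4 (probe set 17324446), an interferon-induced zinc-binding protein gene, was at 8.60, 8.09, 8.50 and 8.73 with rTF and at 8.84, 8.61, 8.51 and 8.85 with rCPS1, a difference of 0.22 ± 0.16 that was 0.09 without rTF replicate 2. Only rCPS1 replicates 1 and 4 lay above every rTF array. Xaf1, a promoter of apoptosis, differed by 0.00021 and counts among the positive members only by that margin. Lgals3bp, a secreted glycoprotein gene, differed by 0.09 ± 0.12, and its second row by 0.14. Of the 14 members given by rule with array values, 13 had an adjusted p of 0.98 in limma, and Ifit1bl2 had 0.862.

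Members with and without the motif both had the low array. The 11 members with a match had a median difference of 0.15 and a median of -0.45 for rTF replicate 2 minus the other rTF arrays. For the 16 members with a sequence but no match these were 0.30 and -0.57. These medians are descriptions of few genes, and members without a match in this window may hold the element elsewhere.

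Upstream of the programme, most interferon genes gave dim signals. Of 16 measured interferon ligand genes 12 lay at or below the median level of all genes, 10 were higher and 6 lower, and 0 had an unadjusted p under 0.05. Ifnb1, interferon beta, was at 2.32, 1.48, 1.52 and 1.76 with rTF and at 1.60, 1.87, 1.55 and 1.85 with rCPS1, with a difference of -0.05 ± 0.19 (SE) between overlapping groups, and its sign changed when rTF replicate 1 or rCPS1 replicate 3 was left out. Ifng, the type II interferon made by T and NK cells, was at 5.92, 6.69, 5.63 and 6.22 with rTF and at 5.92, 5.05, 5.59 and 5.77 with rCPS1. Its highest value was in rTF replicate 2, the array in which the members were lowest, and the difference was -0.53 ± 0.25, or -0.34 without that array and -0.35 without rCPS1 replicate 2. Ifnk, interferon kappa, differed by -0.26 ± 0.17.

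Both chains of the type I receptor were lower with rCPS1 on every array, without passing the adjusted test. Ifnar1 was at 10.05, 10.18, 9.90 and 9.996 with rTF and at 9.67, 9.71, 9.71 and 9.70 with rCPS1. All 4 rCPS1 arrays were below all 4 rTF arrays and close together, for a difference of -0.33 ± 0.10 (SE) with an adjusted p of 0.98. Ifnar2 was at 10.15, 10.19, 10.06 and 10.11 with rTF and at 10.03, 9.94, 10.004 and 9.996 with rCPS1, again without overlap, a difference of -0.14 ± 0.10. Ifnlr1, the dim receptor gene of interferon lambda, was at 3.23, 2.84, 2.91 and 3.16 with rTF and at 2.77, 2.79, 2.57 and 2.54 with rCPS1, also without overlap, a difference of -0.37 ± 0.13. In this list of 16 measured receptor and JAK-STAT genes, 3 had every rCPS1 array below every rTF array, as did 1.97% of all genes, and 0 passed the adjusted test. Without rTF replicate 2 the differences were -0.29 for Ifnar1, -0.12 for Ifnar2 and -0.43 for Ifnlr1. The kinase genes Jak1 and Tyk2 differed by 0.10 ± 0.12 and -0.16 ± 0.16.

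**Figure D4:**
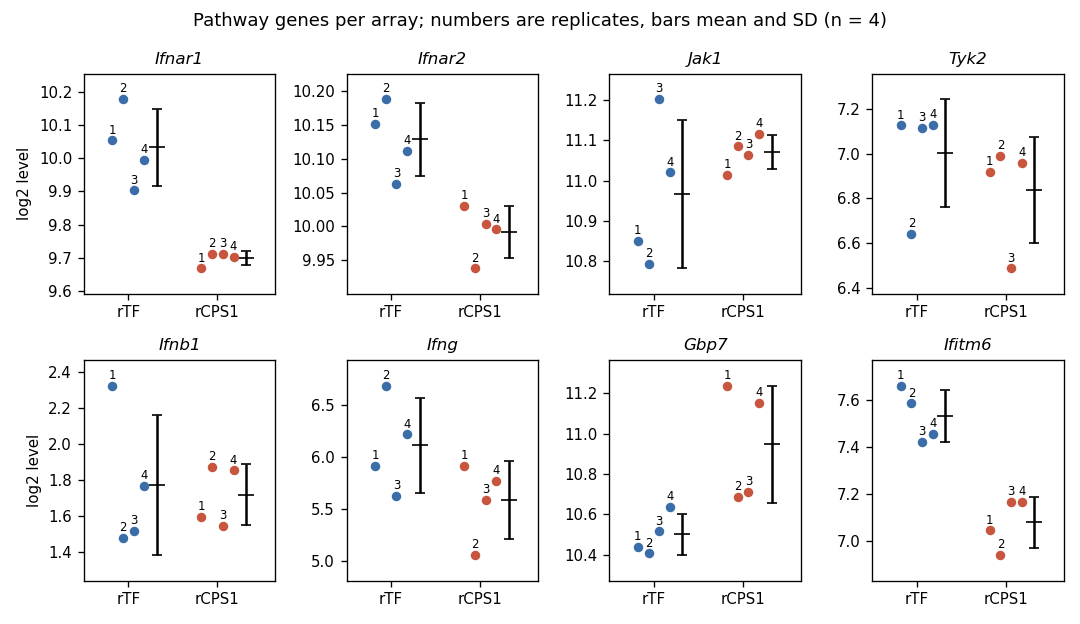
Log2 level on each array for receptor, kinase, ligand and further inducible genes, with rTF in blue and rCPS1 in red. Numbers are replicates and bars are the mean and SD (n = 4); each panel has its own axis range. The groups do not overlap for Ifnar1, Ifnar2 and Ifitm6 (rCPS1 lower) and for Gbp7 (rCPS1 higher), and overlap for Jak1, Tyk2, Ifnb1 and Ifng.

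Among 17 measured sensor and adaptor genes 6 were higher and 11 lower, and the smallest p-values belonged to Irak1, a Toll-like receptor kinase (-0.31 ± 0.14, SE), and Zcchc3, a co-sensor of nucleic acid (-0.36 ± 0.16). Among 7 other interferon regulatory factor genes and their binding partners 3 were higher and 4 lower, with Irf2bp1 at -0.28 ± 0.16 and Irf3, the factor that starts interferon beta transcription, at -0.22 ± 0.14. A list of 61 further inducible genes showed the array pattern of the members in weaker form. Of these 45 were higher and 16 lower, where 45.6% of all genes tested were higher. The median difference was 0.19, or 0.09 without rTF replicate 2. That array was the lowest of the 8 for 31 of the 61 and for 14.3% of all genes. Ifitm6, of the membrane-fusion blocking family, was at 7.66, 7.59, 7.42 and 7.46 with rTF and at 7.05, 6.94, 7.17 and 7.17 with rCPS1, lower without overlap by 0.45 on the log2 scale (SE 0.11). Slfn4, a myeloid Schlafen gene, was at 7.48, 8.24, 7.31 and 7.97 with rTF and at 6.44, 7.50, 6.81 and 6.44 with rCPS1, a difference of -0.95 ± 0.27 with overlap through rCPS1 replicate 2. Gbp7, a guanylate-binding protein gene chosen after its values were seen, was 0.45 ± 0.15 higher without overlap. None of the genes in these lists passed the adjusted test.

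Markers of T and NK cells were high on the array where the members were low. Of 22 measured T and NK cell markers 20 had their highest value of the 8 arrays in rTF replicate 2, the exceptions being Klrb1c and Ccl5. That array was the highest for 19.9% of all genes. The mean level of this list was 7.17 in that array, 6.10 to 6.32 in the other rTF arrays and 5.84 to 6.32 in the rCPS1 arrays, and Klrb1c alone lay below the median level of all genes. Of 10 measured plasmacytoid dendritic cell markers that are not members, 7 were highest there, and the list mean was 7.64 there, 6.82 to 7.16 with rCPS1 and 6.90 to 7.12 on the remaining rTF arrays. Of 11 B cell markers 0 were highest and 0 lowest there, and the list mean of 5.66 lay within the 5.02 to 5.90 of the other rTF arrays. The 15 Kupffer cell markers had a mean of 9.13 in rTF replicate 2, 9.16 to 9.70 in the other rTF arrays and 9.21 to 9.82 with rCPS1. Between the groups, 45.6% of all genes tested were higher with rCPS1. Of the T and NK cell markers 21 of 22 were lower, with a median difference of -0.40, or -0.16 without rTF replicate 2. Kupffer cell markers were higher for 13 of 15, with a median of 0.17 that was 0.05 without that array. The members' median also became smaller without it. On rTF replicate 3 the Kupffer list mean was 9.16 and the median member stood at -0.04. Of the 12 macrophage markers 5 were higher and 7 lower with rCPS1, with a median of -0.013. Their list mean for rTF replicate 2 was 10.02, inside the span of 9.94 to 10.17 for the remaining controls. Of the plasmacytoid and of the conventional dendritic cell markers 8 of 10 each were lower. The plasmacytoid median was -0.20, or 0.0050 without rTF replicate 2, and the conventional median -0.21, or -0.13 without it. Further, 15 of 16 neutrophil markers were lower with rCPS1, with list means of 5.75 to 6.41 on the rTF arrays and 4.87 to 5.49 on the rCPS1 arrays, and 11 of 14 monocyte markers, with means of 7.92 to 8.09 and 7.50 to 7.70. The part of these cell types in the values of the members was not tested.

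**Figure D5:**
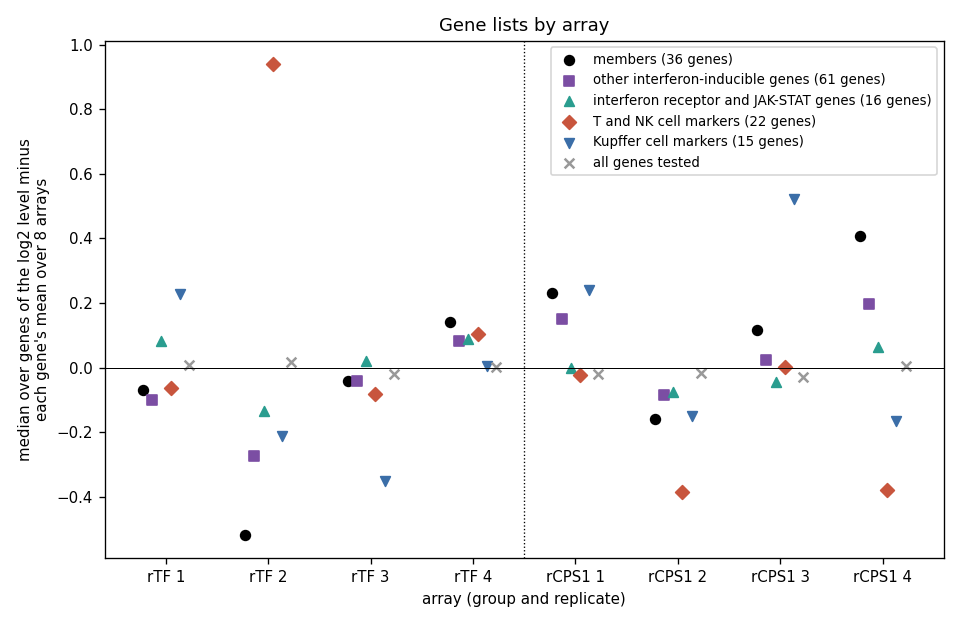
Median over the genes of each list of the log2 level minus each gene's mean over the 8 arrays, by array. In rTF replicate 2 the members stand at -0.52 and the T and NK cell markers at 0.94, while all genes tested stay between -0.030 and 0.018 on every array.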

How the data were processed

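Total RNA (400 ng per sample) of 8 samples was measured on Affymetrix arrays. The authors deposited log2 values made with RMA, and limma is named as well, per the submitters' processing notes, without versions. Cell isolation, the time of sampling and the array's genome build are not given in the sources used here. Rows with 1 gene symbol (23521 of 41345) were used, and for the 1082 genes with several rows the row of highest mean. The 22180 genes were compared in limma 3.58.1 (R 4.3.3; lmFit and eBayes, two-sided, no covariate, Benjamini-Hochberg adjustment at 0.05). The fit was tested on simulated data for rCPS1 against rTF with 22180 genes. It found 14% of 50 genes given a true log2 change of 0.5 and 84% of 50 given 1. In the same run 50 genes each were given 1.5 and 2, of which 98% were found, and 7 unchanged genes were called. Those larger changes ease the adjusted threshold, and the simulated noise was independent between genes, with no low array shared by many. The shares found may therefore not hold for the members.

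The number of arrays limits the precision. Members and gene lists were chosen with earlier results of these data known, so no test was made over the list. By rule, per-array values went to members of largest difference in each role group (2, or 1 in groups of 3), any with an unadjusted p under 0.05 or an array that stood apart, and pathway genes named were the 2 of smallest p per list plus preset receptor, kinase and ligand genes. Alternatives were a filter on dim genes, trended and robust variance, array weights, replicate number as a block, quantile normalization, the mean of all rows and each array left out.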

Additional observations from a re-analysis of the deposited data

Results flagged for a closer look

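Dixon's ratio compared the extreme array of a group with the remaining 3, a test that chance alone passes in about 1 group of 20. Of 132 groups tested 4 passed, where 6.6 would at that rate. The mean over the members did not pass in rTF replicate 2, at 7.53 with the other rTF arrays from 7.97 to 8.20. Samd9l stood at 6.19 in rTF replicate 2, with its other rTF values from 7.18 to 7.37. Ifih1 stood at 8.48 in that array, with others from 9.51 to 9.69. The kinase gene Tyk2 stood at 6.64 in the same array, below 7.12 to 7.13, and at 6.49 in rCPS1 replicate 3, below 6.92 to 6.99.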

How the results depend on the processing

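Under each of 15 alternatives 0 genes and 0 members had an adjusted p under 0.05 in limma, with 1035 genes at an unadjusted p under 0.05 in the fit reported. Leaving out 1 array at a time moved the median member difference between 0.10 and 0.33, the number of members higher between 25 and 31, and the number with an unadjusted p under 0.05 between 1 and 11. It was 8 without rTF replicate 4 (4.67% of all genes) and 11 without rCPS1 replicate 2 (4.72%). Array weights gave a median of 0.14 with 28 members higher. The unadjusted count was 1 as reported, 0 among genes above the median level, where Ifit1bl2 was not tested, 3 with a variance trend (4.37% of all genes) and 13 with the replicate number as a block, where 4.50% of all genes reached it. The labels do not say what a replicate number shares. Deviations of arrays with the same number correlated at -0.12 to 0.025 over all genes, and the reported fit does not pair the samples. Among the members, however, the median deviation was lowest in replicate 2 and highest in replicate 4 in both groups. Whether the numbers pair the samples is therefore not settled. Leaving out single arrays took Ifnb1 from -0.15 to 0.13, and it turned positive without rTF replicate 1 (0.13) and without rCPS1 replicate 3 (0.0025). The causes were not tested.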
